A study of Mus musculus with 12 samples.

Results

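The genes described here are 10 genes of the endoplasmic reticulum (ER): the chaperones and folding enzymes Calr, Canx, Hsp90b1, Hspa5, Pdia3, Pdia4, Pdia6 and P4hb, and the translocon subunits Sec61a1 and Sec61b. They were chosen by symbol, and each matched 1 of the 29879 gene rows of the count files. All 10 passed the filter on low counts, which kept 13404 genes. The RNA came from cortex of mice aged 21 postnatal days, and the animals of all 4 groups of 3 libraries carried the SNAP25 bacTRAP transgene. Such a transgene makes a green fluorescent (eGFP) tag on ribosomes of chosen cells, here driven by regulatory sequence of Snap25, a gene of neurons, and mRNA is recovered with the tagged ribosomes by pull-down. SynapTRAP is the pull-down from the synaptic band of a density gradient of sucrose and percoll, and SNF is that band before the pull-down. TRAP is the pull-down from the whole cortex homogenate, and WCH is that homogenate. Whether the 3 replicates of a group are separate animals is not stated in the labels, and p-values measure the spread between these samples, which may be technical.

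Proteins that will be secreted, sit in a membrane or work inside the ER are made by ribosomes docked on the ER membrane. The Sec61 channel passes the growing chain into or through that membrane, and chaperones and disulfide isomerases in the lumen then fold it. Neurons hold ER in the cell body and also in dendrites and axons, while other cell types of the cortex have an ER of their own. Most of the chaperone genes are known targets of the unfolded protein response, which raises their transcription through promoter motifs bound by ATF6 and NF-Y.

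The best known of these motifs is the ER stress response element (ERSE), in which the blocks CCAAT and CCACG stand 9 bases apart. It was searched on both strands of RefSeq promoter windows on GRCm38.p6 that run from 250 bases before to 50 bases after an annotated start. Windows were at hand for 9 of the 10 genes, and 5 of these held the motif: Hspa5, Calr, Hsp90b1, Canx and Pdia6. The motif was found in 0.119% of all 32851 windows. The windows of Pdia3, Pdia4, P4hb and Sec61b had no match. Pdia3, Pdia4 and P4hb, without a match, correlated with the 5 genes with one at 0.90 to 0.99 (Pearson, log2 CPM over the 12 libraries). Because the libraries form groups that differ in level, these correlations describe the difference between preparations as much as anything within them. Any part of the motif in these levels was not tested. The matches are shown to place the motif in its promoters, and the window of Sec61b shows one with neither the motif nor a CCAAT box. All are written 5′ to 3′ on the strand of the gene, and capitals mark the fixed bases of the motif, or their reverse complement where the match was on the opposite strand.
Hspa5, match at chr2:34772025-34772043, plus strand: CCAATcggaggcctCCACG
Hsp90b1, first match at chr10:86705638-86705656, minus strand: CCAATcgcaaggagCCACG
Hsp90b1, second match at chr10:86705533-86705551, minus strand, reverse complement: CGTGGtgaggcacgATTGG
Pdia6, match at chr12:17266491-17266509, plus strand: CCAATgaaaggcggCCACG
Calr, 250 bases before the start at chr8:84846932-84847181, minus strand, with a reverse complement match: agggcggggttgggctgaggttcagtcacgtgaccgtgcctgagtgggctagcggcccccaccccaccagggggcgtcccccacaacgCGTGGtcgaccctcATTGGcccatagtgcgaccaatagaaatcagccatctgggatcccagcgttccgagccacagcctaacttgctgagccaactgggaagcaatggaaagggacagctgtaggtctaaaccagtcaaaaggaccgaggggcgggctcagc
Canx, 250 bases before the start at chr11:50325674-50325923, minus strand: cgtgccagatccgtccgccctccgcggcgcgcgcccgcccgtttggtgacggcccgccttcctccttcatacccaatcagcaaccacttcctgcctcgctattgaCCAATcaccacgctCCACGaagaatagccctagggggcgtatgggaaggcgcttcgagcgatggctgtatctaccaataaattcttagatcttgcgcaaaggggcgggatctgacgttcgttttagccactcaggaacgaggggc
Sec61b, 250 bases before the start at chr4:47474411-47474660, plus strand, with no match: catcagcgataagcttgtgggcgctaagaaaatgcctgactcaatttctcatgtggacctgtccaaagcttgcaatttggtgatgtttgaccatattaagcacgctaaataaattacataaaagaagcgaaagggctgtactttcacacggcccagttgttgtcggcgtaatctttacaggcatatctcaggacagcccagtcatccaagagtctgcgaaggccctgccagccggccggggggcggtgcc

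The Hspa5 match lay 65 to 47 bases before the start and the Calr match 162 to 144 bases before it. The Hsp90b1 matches lay 212 to 194 and 107 to 89 bases before the start. The CCAAT box alone, CCAAT on either strand, was in 8 of the 9 windows, all but that of Sec61b, and in 37.4% of all windows. These are matches of letters in a fixed window, and binding was not measured.

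Libraries held 4368881 to 14335089 gene counts. RNA of the mitochondrial genome took 20.4% to 63.3% of the gene counts in SynapTRAP, 82.2% to 87.3% in SNF, 0.93% to 5.43% in TRAP and 33.6% to 50.9% in WCH. The counts left for all other genes were 3585898 to 7115176 in SynapTRAP, 1819853 to 2111322 in SNF, 4328253 to 6168574 in TRAP and 4462407 to 6032062 in WCH. Of 20 neuron markers, 9 were higher and 0 lower in TRAP than in WCH, while 0 of 20 astrocyte markers were higher and 10 lower. Of all tested genes 11.1% were higher there and 10.9% lower. In SynapTRAP against SNF, 2 of the 20 neuron markers were higher and 0 lower, and 0 astrocyte markers were higher and 0 lower. Of 20 microglia markers 0 were higher and 1 lower, and of 20 oligodendrocyte markers 0 were higher and 3 lower. Of 12 fibroblast and meninges markers 0 were higher and 0 lower. Of all tested genes 2.29% were higher and 1.79% lower in SynapTRAP against SNF. Levels are given as CPM, counts brought to a common library size, after scaling by the trimmed mean of M-values (TMM), and the tests are edgeR quasi-likelihood tests with p-values adjusted over all 13404 genes. A gene is called when its adjusted p is under 0.05. In the GENCODE annotation Hsp90b1, Pdia3, Pdia6 and Sec61a1 overlap a gene on the other strand, and Calr has a pseudogene. No source used here gives the strand setting of the counting, so reads of these neighbours or copies may be in or out of the counts.

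In the synaptic band, RNA of all 8 chaperones and of Sec61a1 was 3.39 to 5.03 times as abundant as in the whole homogenate. The largest fold changes were those of the disulfide isomerase Pdia3 and of calreticulin (Calr), and the smallest among these 9 was that of Sec61a1. Sec61b, the small subunit of the same channel, was not called, and its groups overlapped. In SNF against WCH, 9 of the 10 genes were called higher and 0 lower, where 20.6% of all tested genes were called higher and 16.5% lower. The median log2 fold change of the 10 genes was 2.05, beside -0.25 over all tested genes.

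This contrast rests on the scaling. As a share of the counts outside the mitochondrial genome, the 10 genes took 0.296% to 0.381% in SNF and 0.0852% to 0.131% in WCH. As a share of all gene counts, they took 0.0376% to 0.0604% in SNF and 0.0537% to 0.0642% in WCH, ranges that overlap. With libraries scaled by total gene counts, the median of all genes moved to -2.60 and 0 of the 10 genes were called higher. The median of the 10 genes stood 2.30 above that of all genes with TMM and 2.32 above it with total counts.

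On tagged ribosomes the same 9 genes were 2.32 to 3.59 times as abundant in the synaptic band as in the whole cortex. Sec61b differed in the other direction, with a log2 fold change of -0.98 ± 0.345 (SE, adjusted p = 0.0279, edgeR). In SynapTRAP against TRAP, 9 genes were called higher and 1 lower, where 21.6% of all tested genes were called higher and 18.1% lower. The median log2 fold change of the 10 genes was 1.62, beside -0.02 over all tested genes. With total gene counts 2 genes were called higher and 1 lower, and the median of the 10 genes stood 1.76 above that of all genes, against 1.64 above it with TMM.

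The pull-down itself was tested in the homogenate and in the band. In TRAP against WCH only Calr was called, 2.03 times as abundant on tagged ribosomes as in the homogenate. That is 1 of 10 genes higher and 0 lower, where 11.1% of all tested genes were called higher and 10.9% lower, a share near that of all genes. The median log2 fold change was 0.39, beside -0.01 over all tested genes, and leaving out each library in turn gave medians of 0.06 to 0.63. The counts over all genes, 1488 higher and 1459 lower, were 652 and 832 without WCH replicate 2, 755 and 863 without WCH replicate 3, 954 and 944 without WCH replicate 1, and 969 and 969 without TRAP replicate 3. In SynapTRAP against SNF none of the 10 genes was called in either direction, with 0 at an unadjusted p under 0.05 and 0 by DESeq2. Of all tested genes, 2.29% were called higher there and 1.79% lower. The fitted log2 fold changes ran from -0.46 for P4hb to 0.29 for Calr, and their 95% intervals reached from -0.97 to 0.83. With libraries scaled by total gene counts all 10 were called higher, as the median of all genes moved to 1.98, and the median of the 10 genes stood at -0.19 relative to it, against -0.18 with TMM. Same-numbered SynapTRAP and SNF libraries deviated together, and with the replicate number as a block the counts were again 0 and 0 of 10, while those over all genes became 441 higher and 393 lower, against 307 and 240 without it.

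The effect of the pull-down was then compared between the band and the homogenate, as SynapTRAP minus SNF less TRAP minus WCH. None of the 10 genes was called, where 0.507% of all tested genes were called higher and 0.358% lower. The 10 log2 differences ran from -0.93 to -0.09 with TMM and from 0.54 to 1.32 with libraries scaled by total gene counts, so their sign rests on the scaling. Relative to the median of all genes, the median of the 10 genes stood at -0.59 with TMM and at -0.54 with total gene counts. P4hb, at -0.93 ± 0.349 (SE), was the 1 gene with an unadjusted p under 0.05 in edgeR (adjusted p = 0.168), and DESeq2 called 0 of the 10. The 4 contrasts share libraries, so their values for a gene are not independent of each other.

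**Figure D1:**
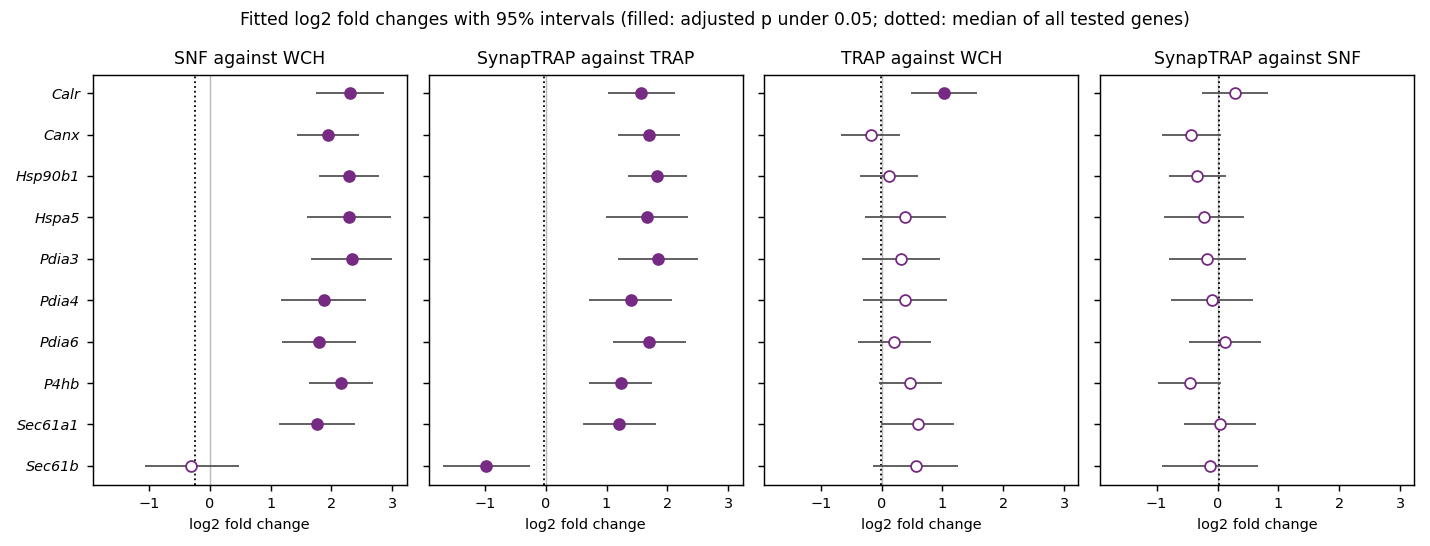
Fitted log2 fold changes of the 10 genes (rows) in 4 contrasts (panels), with 95% intervals from the edgeR fit. Filled points are called at an adjusted p under 0.05, and the dotted line is the median of all 13404 tested genes. In SNF against WCH and in SynapTRAP against TRAP 9 genes lie between 1.21 and 2.33 and Sec61b lies at -0.30 and -0.98, while TRAP against WCH and SynapTRAP against SNF hold 1 filled point between them, that of Calr.

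Hspa5 encodes BiP, the Hsp70 chaperone of the ER lumen, which binds unfolded chains as they come through the channel (ENSMUSG00000026864, chr2:34771970-34777547 in GRCm38, plus strand). Hspa5 had 228, 302 and 274 CPM in SynapTRAP replicates 1 to 3 and 230, 306 and 405 CPM in SNF. It had 69.9, 54.0 and 130 CPM in TRAP and 47.5, 48.9 and 97.5 CPM in WCH. Every SynapTRAP and SNF library lay above every TRAP and WCH library, and replicate 3 was the highest of its group in SNF, TRAP and WCH. The log2 fold change was 2.28 ± 0.331 (SE, adjusted p = 2.74e-05, edgeR) in SNF against WCH and 1.66 ± 0.323 (adjusted p = 0.000447) in SynapTRAP against TRAP.

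Hsp90b1 encodes endoplasmin, the Hsp90 chaperone of the ER lumen, which finishes the folding of a set of secreted and membrane proteins (ENSMUSG00000020048, chr10:86690209-86705509, minus strand). Hsp90b1 had 297, 351 and 355 CPM in SynapTRAP and 359, 411 and 490 CPM in SNF. It had 96.6, 72.7 and 112 CPM in TRAP and 77.2, 78.1 and 104 CPM in WCH. The SynapTRAP libraries all lay below the SNF libraries, but the difference was not called (log2 fold change -0.33, 95% interval -0.80 to 0.14). In SNF against WCH the log2 fold change was 2.28 ± 0.239 (SE, adjusted p = 2.32e-06, edgeR), the smallest adjusted p of the 10 genes, and in SynapTRAP against TRAP it was 1.83 ± 0.235 (adjusted p = 5.56e-06).

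Calr and Canx encode calreticulin and calnexin, the soluble and the membrane-bound lectin chaperone that hold newly made glycoproteins until they are folded. Calr (ENSMUSG00000003814, chr8:84841850-84846934, minus strand) had 318, 276 and 186 CPM in SynapTRAP and 215, 236 and 187 CPM in SNF. It had 90.3, 58.2 and 114 CPM in TRAP and 41.1, 34.7 and 53.3 CPM in WCH. Calr had all of its TRAP libraries above the WCH libraries.

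Its log2 fold change in TRAP against WCH was 1.02 ± 0.263 (SE, adjusted p = 0.00828, edgeR). Without WCH replicate 2 it was 0.89, with an adjusted p of 0.0651. Calr was also higher in SNF than in WCH, by 2.31 ± 0.272 on the log2 scale (adjusted p = 3.9e-06), and in SynapTRAP than in TRAP, by 1.57 ± 0.264 (adjusted p = 9.43e-05).

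Canx (ENSMUSG00000020368, chr11:50293961-50325673, minus strand) had 306, 374 and 224 CPM in SynapTRAP and 378, 418 and 421 CPM in SNF. It had 82.0, 91.9 and 106 CPM in TRAP and 91.9, 88.5 and 136 CPM in WCH. Canx was not called in TRAP against WCH, where its log2 fold change was -0.18 (95% interval -0.67 to 0.31) and its groups overlapped. The SynapTRAP libraries lay below the SNF libraries without a call (log2 fold change -0.43, 95% interval -0.92 to 0.06). In SNF against WCH the log2 fold change was 1.94 ± 0.245 (SE, adjusted p = 5.94e-06, edgeR), and in SynapTRAP against TRAP it was 1.69 ± 0.243 (adjusted p = 1.83e-05).

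**Figure D2:**
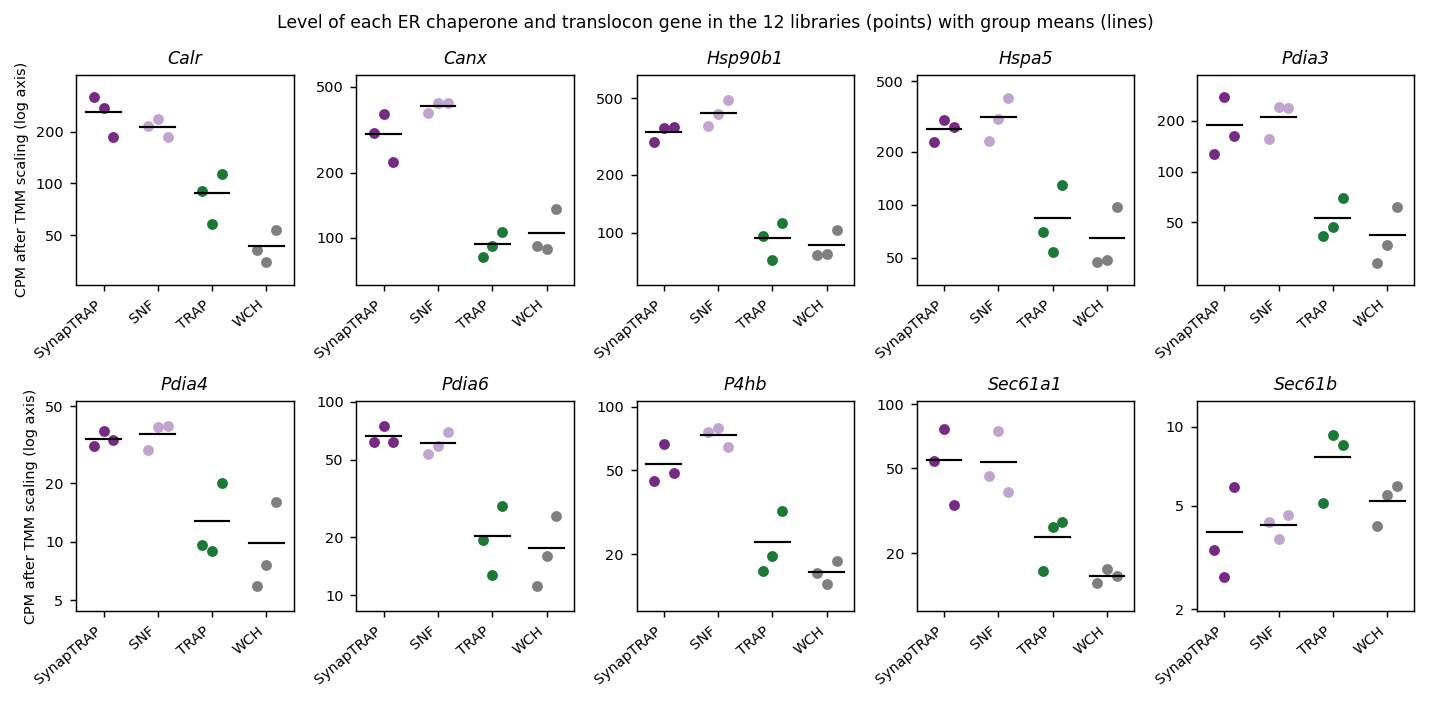
Level of each of the 10 genes in CPM after TMM scaling, on log axes that differ between panels, in SynapTRAP, SNF, TRAP and WCH. Points are the 3 libraries of a group in the order of their replicate numbers, and lines are group means. In every panel but that of Sec61b the SynapTRAP and SNF libraries lie above the TRAP and WCH libraries.

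The 4 disulfide isomerases form, break and exchange disulfide bonds in the ER lumen. Pdia3, which works together with calnexin and calreticulin on glycoproteins, lies at chr2:121413775-121438687 (ENSMUSG00000027248, plus strand). It had 127, 279 and 162 CPM in SynapTRAP, 157, 242 and 238 CPM in SNF, 41.5, 47.1 and 69.9 CPM in TRAP and 28.8, 36.6 and 61.6 CPM in WCH. SynapTRAP replicate 2 was the highest library for this gene, and the lowest SynapTRAP library still lay above all TRAP and WCH libraries. Pdia3 had the largest log2 fold change of the 10 genes both in SNF against WCH (2.33 ± 0.322, SE, adjusted p = 1.67e-05, edgeR) and in SynapTRAP against TRAP (1.84 ± 0.316, adjusted p = 0.000131).

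P4hb encodes the classical protein disulfide isomerase, which is also the beta subunit of prolyl 4-hydroxylase (ENSMUSG00000025130, chr11:120560298-120573253, minus strand). It had 44.6, 66.9 and 48.5 CPM in SynapTRAP, 76.3, 79.0 and 64.7 CPM in SNF, 16.7, 19.7 and 32.0 CPM in TRAP and 16.3, 14.5 and 18.5 CPM in WCH. The SynapTRAP and SNF libraries overlapped, by 1 library of each, while each SynapTRAP library lay below the SNF library of the same number. With the replicate number as a block, the log2 fold change in SynapTRAP against SNF was -0.47 for P4hb and was not called (adjusted p = 0.262, edgeR). P4hb was higher in SNF than in WCH, by 2.16 ± 0.257 on the log2 scale (SE, adjusted p = 3.95e-06, edgeR), and in SynapTRAP than in TRAP, by 1.23 ± 0.248 (adjusted p = 0.000538).

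Pdia4 and Pdia6 are further thioredoxin-like isomerases of the lumen, found in complexes with BiP. Pdia4 (ENSMUSG00000025823, chr6:47796141-47813430, minus strand) averaged 34.0 ± 2.98 CPM in SynapTRAP, 36.0 ± 5.55 in SNF, 12.9 ± 6.22 in TRAP and 9.91 ± 5.46 in WCH (SD, n = 3 each). Pdia6 (ENSMUSG00000020571, chr12:17266545-17284770, plus strand) averaged 66.2 ± 7.38 CPM in SynapTRAP, 60.8 ± 7.87 in SNF, 20.4 ± 8.22 in TRAP and 17.6 ± 7.43 in WCH. Their log2 fold changes in SNF against WCH were 1.87 ± 0.338 (adjusted p = 0.000214, edgeR) for Pdia4 and 1.79 ± 0.295 (adjusted p = 7.74e-05) for Pdia6. In SynapTRAP against TRAP they were 1.40 ± 0.327 (adjusted p = 0.00194) for Pdia4 and 1.70 ± 0.29 (adjusted p = 0.000112) for Pdia6.

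Sec61a1 and Sec61b parted. Sec61a1 encodes the alpha subunit that forms the pore of the channel (ENSMUSG00000030082, chr6:88503579-88518905, minus strand), and Sec61b encodes the small tail-anchored beta subunit beside it (ENSMUSG00000053317, chr4:47474658-47483242, plus strand). Sec61a1 had 54.0, 76.8 and 33.9 CPM in SynapTRAP, 46.3, 75.3 and 38.7 CPM in SNF, 16.5, 26.6 and 28.2 CPM in TRAP and 14.5, 17.0 and 15.7 CPM in WCH. The lowest SynapTRAP library, replicate 3, was still above every TRAP library. Its log2 fold change was 1.76 ± 0.298 (SE, adjusted p = 0.000101, edgeR) in SNF against WCH and 1.21 ± 0.289 (adjusted p = 0.00217) in SynapTRAP against TRAP.

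Sec61b had 3.37, 2.66 and 5.90 CPM in SynapTRAP, 4.32, 3.72 and 4.62 CPM in SNF, 5.10, 9.33 and 8.56 CPM in TRAP and 4.17, 5.47 and 5.96 CPM in WCH. These rest on 42, 35 and 40 reads in SynapTRAP, 15, 14 and 19 in SNF, 75, 103 and 100 in TRAP and 54, 81 and 65 in WCH. SynapTRAP replicate 3 lay above TRAP replicate 1, so these groups overlapped. In SNF against WCH the log2 fold change was -0.30 (95% interval -1.07 to 0.48, adjusted p = 0.547, edgeR).

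An increase of Sec61b in the band of the size seen for Sec61a1 lay outside that interval. The call in SynapTRAP against TRAP was lost without TRAP replicate 2 or 3 and without SynapTRAP replicate 1 or 2, with log2 fold changes of -0.86, -0.93, -0.91 and -0.75. It was also lost in a fit of these 2 groups alone (-0.92, adjusted p = 0.0939).

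Within each library, the log2 level of Sec61b less that of Sec61a1 was -4.85 to -2.52 in SynapTRAP and -4.34 to -3.06 in SNF, against -1.72 to -1.51 in TRAP and -1.80 to -1.40 in WCH. As differences within a library they are free of the scaling. The SynapTRAP and SNF ranges did not overlap those of TRAP and WCH. With 3 libraries against 3, an exact two-sided permutation test cannot go below a p of 0.1. Sec61g, the gamma subunit, was near the limit of detection with 2 to 49 reads a library. Sec61a2, the second alpha subunit gene, averaged 6.89 ± 2.39 CPM in SynapTRAP, 8.77 ± 4.03 in SNF, 4.40 ± 1.53 in TRAP and 7.09 ± 2.25 in WCH (SD, n = 3 each) and was not called in any of the 5 tests, nor was Sec61g.

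To compare levels between genes, CPM were divided by the annotated exon length in kilobases. In each of the 4 groups the same 5 genes, Calr, Hsp90b1, Canx, Hspa5 and Pdia3, lay above the other 5 without overlap. Neighbours among the upper 5 overlapped in every group. Calr had the highest mean in SynapTRAP, at 90.2 ± 23.4 CPM per kilobase, and in TRAP, at 30.4 ± 9.66. Hsp90b1 had the highest mean in SNF, at 104 ± 16.5, and Canx in WCH, at 22.5 ± 5.65. Sec61b came last in SynapTRAP and SNF, at 3.13 ± 1.34 and 3.32 ± 0.36 CPM per kilobase, below Sec61a1 without overlap. In TRAP and WCH it was Sec61a1 that came last, at 3.53 ± 0.941 and 2.34 ± 0.187 CPM per kilobase, against 6.03 ± 1.77 and 4.09 ± 0.729 for Sec61b. Those 2 genes did not overlap in WCH.

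Across the 12 libraries, the 36 pairs of genes without Sec61b had Pearson correlations of log2 CPM between 0.84 and 0.99, with a median of 0.93. The 9 pairs with Sec61b lay between -0.64 and -0.43. The libraries fall into groups that differ in level, so these values describe the difference between groups as much as anything within them. Of 13394 other genes, the 5 whose log2 CPM over the 12 libraries was most like the mean profile of the 8 chaperones were Cntnap2 (r = 0.985), Ncan (0.981), Sgce (0.981), Olfml2b (0.980) and L1cam (0.979). L1cam, for example, averaged 363 ± 66.3 CPM in SynapTRAP, 532 ± 105 in SNF, 127 ± 30.4 in TRAP and 94.9 ± 14.5 in WCH (SD, n = 3 each).

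Relatives of the ER chaperones that work outside the ER had another pattern. Hspa8, the constitutive Hsp70 of the cytosol, averaged 69.4 ± 12 CPM in SynapTRAP, 45.8 ± 7.98 in SNF, 97.2 ± 49.9 in TRAP and 43.7 ± 9.07 in WCH (SD, n = 3 each). Its log2 fold change in SNF against WCH was 0.07 (adjusted p = 0.876, edgeR), and it was called only in TRAP against WCH, at 1.15 ± 0.299 (adjusted p = 0.00894), where its groups overlapped. Hspa9, the Hsp70 of mitochondria, was called only in SynapTRAP against SNF, at 0.92 ± 0.25 (adjusted p = 0.0384). The Hspa9 call was lost with the scaling factors of DESeq2 in edgeR and in a fit of these 2 groups alone. It was also lost without any 1 of the SNF libraries, SynapTRAP replicate 1, TRAP replicate 1, WCH replicate 1 or WCH replicate 2. Hsp90ab1 and Hsp90aa1, the Hsp90 chaperones of the cytosol, were called only in TRAP against WCH, at 1.11 ± 0.277 (adjusted p = 0.00698) and 0.76 ± 0.258 (adjusted p = 0.0388).

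Ratios of counts within a library show the same parting without any scaling. The log2 ratio of Hspa5 to Hspa8 averaged 1.96 ± 0.32 in SynapTRAP, 2.75 ± 0.42 in SNF, -0.15 ± 0.35 in TRAP and 0.50 ± 0.46 in WCH (SD, n = 3 each). Hspa5 thus had 3.14 to 4.88 times the counts of Hspa8 in SynapTRAP and 4.82 to 8.27 times in SNF, against 0.713 to 1.15 times in TRAP and 1.01 to 1.92 times in WCH. The log2 ratio of Hspa5 to Hspa9 averaged 2.13 ± 0.41 in SynapTRAP, 3.20 ± 0.36 in SNF, 0.26 ± 0.46 in TRAP and 0.44 ± 0.59 in WCH. That of Hsp90b1 to Hsp90ab1 averaged -1.23 ± 0.50 in SynapTRAP, -0.11 ± 0.45 in SNF, -3.31 ± 0.17 in TRAP and -2.36 ± 0.24 in WCH. For all 3 ratios the SynapTRAP and SNF libraries lay above all TRAP and WCH libraries.

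**Figure D3:**
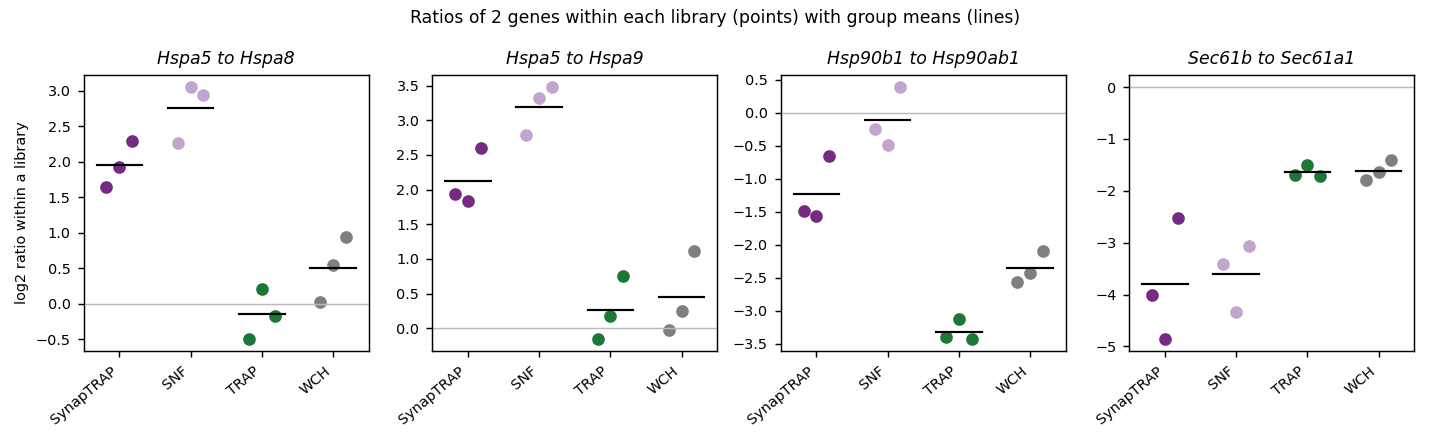
Log2 ratio of 2 genes within each library, in SynapTRAP, SNF, TRAP and WCH. The ratios are Hspa5 to Hspa8, Hspa5 to Hspa9 and Hsp90b1 to Hsp90ab1 (counts), and Sec61b to Sec61a1 (CPM). Points are the 3 libraries of a group and lines are means. The first 3 ratios are higher in SynapTRAP and SNF than in TRAP and WCH, and that of Sec61b to Sec61a1 is lower, at -4.85 to -2.52 against -1.80 to -1.40.

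Other genes of ER folding moved with the 10 genes. Of all tested genes, 20.6% were called higher and 16.5% lower in SNF against WCH, and 21.6% and 18.1% in SynapTRAP against TRAP. These shares were 11.1% and 10.9% in TRAP against WCH and 2.29% and 1.79% in SynapTRAP against SNF. Of 48 tested genes of a list of other ER chaperones and folding enzymes, 40 were higher and 0 lower in SNF than in WCH, with a median log2 fold change of 1.5. They included Uggt1, the glucosyltransferase that checks glycoprotein folding (1.78 ± 0.224, SE, adjusted p = 5.85e-06, edgeR), the calcium-binding reticulocalbin Rcn2 (1.82 ± 0.255, adjusted p = 1.49e-05) and the BiP co-chaperone Dnajc3 (1.57 ± 0.224, adjusted p = 1.91e-05). The counts were 33 higher and 0 lower in SynapTRAP against TRAP, with a median of 1.12, among them Dnajc3 at 1.91 and the collagen chaperone Serpinh1 at 3.39. Between TRAP and WCH 2 (4.17%) were higher (Sil1 at 1.16 and Cnpy2 at 1.11) and 6 (12.5%) lower, with a median of -0.44. The share lower was near the 10.9% of all genes. In SynapTRAP against SNF 0 were higher and 2 (4.17%) lower (Tmx4 at -1.13 and Ero1l at -0.95). The number lower there was 9 in DESeq2, 4 with the scaling factors of DESeq2 in edgeR, and 0 in a fit of these 2 groups alone.

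Of 24 tested translocon, targeting and signal peptidase genes, 15 (62.5%) were higher and 4 (16.7%) lower in SNF than in WCH, with a median of 1.13. Of all genes 20.6% were higher and 16.5% lower there, so the share lower was near that of all genes. The higher ones included the translocon-associated subunits Ssr2 (1.80 ± 0.25, SE, adjusted p = 1.41e-05, edgeR) and Ssr3 (1.30 ± 0.22, adjusted p = 9.5e-05) and the BiP-recruiting Sec63 (1.27 ± 0.211, adjusted p = 8.63e-05). The 4 lower ones were all proteins of the signal recognition particle, which brings ribosomes to the ER from the cytosol: Srp19 (-0.83), Srp68 (-0.66), Srp72 (-0.62) and Srp14 (-0.63, named after its values were seen). With the scaling factors of DESeq2 in edgeR, and in DESeq2 itself, 1 gene was lower. The number lower was 1 without SynapTRAP replicate 1, TRAP replicate 2, TRAP replicate 3 or WCH replicate 1, and 2 without TRAP replicate 1, any 1 of the SNF libraries, WCH replicate 2 or WCH replicate 3. The counts in SynapTRAP against TRAP were 10 (41.7%) higher and 4 (16.7%) lower, with a median of 0.60. Of all genes 21.6% were higher there and 18.1% lower, so the share lower was near that of all genes. The lower ones included Srp19 at -1.55, Srp14 at -1.22 and Srp9 at -1.57, and without SynapTRAP replicate 1 the number higher was 6.

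On tagged ribosomes of the homogenate the translocon list had calls in both directions. In TRAP against WCH 3 of its genes (12.5%, beside 11.1% of all genes) were higher, Ssr2 (0.98), Srp68 (0.61) and Srp19 (0.62), and 5 were lower, among them Ssr3 (-1.06), the translocating chain protein Tram1 (-0.99) and the signal peptidase subunit Spcs3 (-0.81). The number higher was 1 without TRAP replicate 1, TRAP replicate 2, SNF replicate 1 or any 1 of the WCH libraries. The number lower was 2 or 3 without TRAP replicate 2 or 3 or without any 1 of the WCH libraries. In SynapTRAP against SNF 0 were higher and 2 lower, Ssr3 at -0.99 and Spcs3 at -0.84, and the number lower was 0 without SynapTRAP replicate 1 or any 1 of the SNF libraries.

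The oligosaccharyltransferase, which adds the sugar tree to chains in the channel, had 9 of 12 tested subunit genes (75%) higher and 0 lower in SNF than in WCH, with a median of 1.39. Of all genes 20.6% were higher and 16.5% lower there. Rpn1 (2.01 ± 0.266, SE, adjusted p = 8.93e-06, edgeR), Rpn2 (1.90 ± 0.226, adjusted p = 3.96e-06) and the catalytic Stt3b (1.68 ± 0.215, adjusted p = 6.9e-06) were among them. Of these subunits 6 (50%) were higher in SynapTRAP than in TRAP, and 1 (8.33%), Ost4 (-1.11), was lower. The shares of all genes were 21.6% and 18.1%. The number lower was 0 in a fit of these 2 groups alone and without SynapTRAP replicate 1 or 2 or TRAP replicate 2 or 3. The 2 catalytic subunits, Stt3a (-1.10) and Stt3b (-0.76), were the genes called lower in SynapTRAP against SNF (16.7%, beside 1.79% of all genes). The number lower there was 0 without SNF replicate 2, and 1 with no filter or in a fit of these 2 groups alone. It was also 1 without SNF replicate 1 or 3, SynapTRAP replicate 1 or 3, or WCH replicate 2 or 3. In TRAP against WCH 3 (25%) were higher, Dad1 (1.22), Ddost (0.91) and Krtcap2 (1.0), and 2 (16.7%) lower, Magt1 (-2.06) and Stt3a (-0.84). Of all genes 11.1% were higher and 10.9% lower in that contrast. The number higher was 0 without TRAP replicate 3, WCH replicate 1 or WCH replicate 2 and 1 without WCH replicate 3.

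Of 18 tested genes of ER-associated degradation, which returns misfolded proteins to the cytosol, 13 were higher and 1 lower in SNF than in WCH. The ubiquitin ligase adaptor Sel1l (1.74 ± 0.236, SE, adjusted p = 1.09e-05, edgeR) was among the higher ones. Between SynapTRAP and TRAP 12 (66.7%) were higher and 0 lower, beside 21.6% and 18.1% of all genes. In TRAP against WCH 2 (11.1%) were higher and 3 (16.7%) lower, beside 11.1% and 10.9%. In SynapTRAP against SNF 0 were higher and 3 (16.7%) lower, beside 2.29% and 1.79%. Of 21 genes of ER shape and calcium handling, 16 were higher and 0 lower in SNF than in WCH and 12 higher and 0 lower in SynapTRAP than in TRAP. The ribosome-binding Rrbp1 led both, at 2.42 ± 0.287 (adjusted p = 3.95e-06) and 2.54 ± 0.286 (adjusted p = 1.23e-06). In TRAP against WCH 1 (4.76%) was higher and 2 (9.52%) lower, beside 11.1% and 10.9% of all genes, and in SynapTRAP against SNF 0 were higher and 0 lower.

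Of 16 tested sensors and effectors of the unfolded protein response, 9 were higher in SNF than in WCH, among them the membrane-bound factor Atf6b (1.64 ± 0.256, SE, adjusted p = 4.6e-05, edgeR) and the proteases that release such factors, Mbtps1 (0.99) and Mbtps2 (1.18). The 1 lower gene (6.25%, beside 16.5% of all genes) was the transcription factor Atf4 (-0.71 ± 0.254, adjusted p = 0.0326). That Atf4 call was lost in DESeq2 and with the scaling factors of DESeq2 in edgeR. It was also lost without SNF replicate 1 or 2, SynapTRAP replicate 1, TRAP replicate 1, WCH replicate 1 or WCH replicate 3. On tagged ribosomes 8 (50%) were higher and 3 (18.8%) lower in SynapTRAP against TRAP, where 21.6% of all genes were higher and 18.1% lower. The share lower was thus near that of all genes. The lower ones were Atf4 (-1.60 ± 0.254, adjusted p = 5.63e-05), Ddit3 (-2.0 ± 0.4, adjusted p = 0.000512) and Chac1 (-2.31 ± 0.496, adjusted p = 0.000932). Ddit3 and Chac1 are known as genes that Atf4 switches on. Both were at low levels, 1.55 and 1.06 CPM in SynapTRAP against 6.08 and 5.27 CPM in TRAP. Asns (-0.50) and Ppp1r15a (-0.25) of the same list were not called there. In TRAP against WCH 1 gene (6.25%), Asns (1.0), was higher and 0 lower, beside 11.1% and 10.9% of all genes. In SynapTRAP against SNF 0 were higher and 1, Mbtps2 (-1.17), was lower. Without SynapTRAP replicate 2 the number higher in SynapTRAP than in TRAP was 5.

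Of 20 tested genes of ER exit and retrieval, 10 (50%) were higher and 4 (20%) lower in SNF than in WCH, where 20.6% of all genes were higher and 16.5% lower. The membrane-spanning cargo receptors Lman1 (1.54) and Lman2 (1.32) and the retrieval receptor Kdelr1 (1.63) were higher. The vesicle fusion protein Sec22b (-0.89) and the coat proteins Sec23a (-0.76), Sec31a (-0.63) and Sec24b (-0.60, named after its values were seen) were lower. The share lower in SNF against WCH was near that of all genes. The number lower was 1 without SNF replicate 2 and 2 without SNF replicate 3, SynapTRAP replicate 1 or any 1 of the WCH libraries. It was also 2 with the scaling factors of DESeq2 in edgeR. For SynapTRAP against TRAP the counts were 9 (45%) higher and 3 (15%) lower, beside 21.6% and 18.1% of all genes. Without SynapTRAP replicate 1, SynapTRAP replicate 2 or TRAP replicate 3 the number higher was 3, 4 or 5. The counts were 2 (10%) higher and 0 lower in TRAP against WCH, beside 11.1% and 10.9% of all genes. In SynapTRAP against SNF 1, Sec31a (0.78), was higher and 0 lower.

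Of 32 tested chaperones of the cytosol and mitochondria, 0 were higher and 8 (25%) lower in SNF than in WCH, where 20.6% of all genes were higher and 16.5% lower, with a median of -0.36, beside -0.25 over all genes. The Hsp70 co-chaperones Dnajb1 (-1.28 ± 0.278, SE, adjusted p = 0.00107, edgeR), Dnaja2 (-0.80) and Dnaja1 (-0.87) were among the lower ones. The number lower was 3 without SNF replicate 2 or WCH replicate 1 and 5 without SNF replicate 1, SynapTRAP replicate 1, WCH replicate 2 or WCH replicate 3. In SynapTRAP against TRAP 0 were higher and 12 (37.5%) lower, where 18.1% of all genes were lower. In SynapTRAP against SNF 3 were higher (Cdc37 at 0.98, Hspa9 at 0.92 and Cct5 at 0.86) and 0 lower, and leaving out each library gave 0 to 5 higher. The number higher there was 0 with the scaling factors of DESeq2 in edgeR and in a fit of these 2 groups alone. The counts in TRAP against WCH were 11 higher and 1 lower. The first of them was 6 without TRAP replicate 3 or WCH replicate 2 and 7 without WCH replicate 1 or 3. Other list counts of 3 or fewer also moved by over 1.5 times when single libraries were left out, mostly in TRAP against WCH and SynapTRAP against SNF. In the test of the difference between the pull-down effects, 0 genes of each of the 8 lists were called by edgeR.

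**Figure D4:**
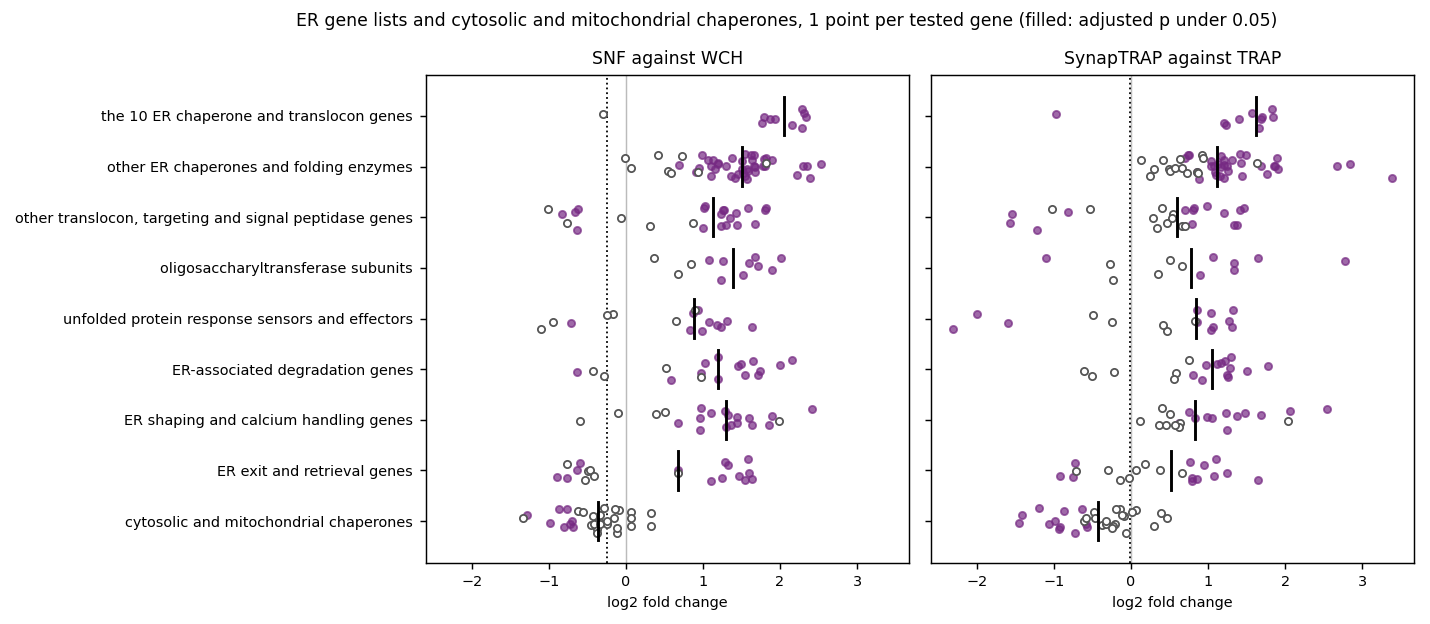
Log2 fold changes of the 10 ER chaperone and translocon genes and of 8 gene lists (rows) in SNF against WCH and SynapTRAP against TRAP (panels), with 1 point per tested gene, filled where the adjusted p is under 0.05. Black bars are medians of a list, and the dotted line is the median of all tested genes. The 7 ER lists have medians of 0.68 to 1.5 in SNF against WCH and 0.51 to 1.12 in SynapTRAP against TRAP, while cytosolic and mitochondrial chaperones have medians of -0.36 and -0.42.

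Markers of several other cell types moved with these genes. In SNF against WCH, 19 of 20 astrocyte, 13 of 20 oligodendrocyte, 6 of 9 oligodendrocyte precursor, 20 of 20 microglia and 12 of 12 fibroblast and meninges markers were higher and 0 lower. Of 20 neuron markers, 4 were higher and 5 lower. Of all tested genes 20.6% were higher and 16.5% lower there, so the share of neuron markers higher was near that of all genes. In SynapTRAP against TRAP, 20 of 20 astrocyte, 17 of 20 oligodendrocyte, 9 of 9 precursor, 20 of 20 microglia and 11 of 12 fibroblast and meninges markers were higher and 0 lower. Of the 20 neuron markers 5 were higher and 8 lower there, where 21.6% of all tested genes were higher and 18.1% lower.

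The summed level of the astrocyte markers was 11300 to 19300 CPM in SynapTRAP, 16200 to 21900 in SNF, 905 to 1870 in TRAP and 2770 to 3490 in WCH. That of the microglia markers was 304 to 685 CPM in SynapTRAP, 488 to 958 in SNF, 37.3 to 84.2 in TRAP and 133 to 153 in WCH. That of the neuron markers was 19400 to 20800 CPM in SynapTRAP, 15900 to 18300 in SNF, 13900 to 23900 in TRAP and 13600 to 14900 in WCH. Between SNF and WCH, 3 of 14 endothelial, 5 of 9 mural and 4 of 6 choroid plexus and ependyma markers were higher and 0 lower. Of 5 blood markers 0 were higher and 1 lower. The endothelial share was near the 20.6% of all tested genes that were higher there. Of all these markers, Tmem212 of the choroid plexus and ependyma list was the one at 0 in all libraries of a group (SynapTRAP, SNF and TRAP). The part of these cell types in the higher level of the ER genes was not tested. In such bulk samples, more RNA of a cell type and more RNA of a gene per cell cannot be told apart.

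The authors deposited a table of 3508 genes enriched in SNF. All of the 10 genes but Sec61b are listed in the authors' deposited table (9 of 10), with log2 fold changes of 1.806 for Pdia6 to 2.511 for Calr. None of the 10 is in the authors' deposited table of 109 candidates for local translation or in that of 275 candidates for somatic translation. Of the genes of the 8 lists, Srp9, Srp14, Srp19, Sec31a and Hsph1 are in the authors' deposited table of somatic candidates.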

How the data were processed

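RNA was sequenced in 12 libraries of mouse cortex, 3 each of SynapTRAP, SNF, TRAP and WCH. The labels name a NuGEN kit for the cDNA, and edgeR, HTSeq, STAR and Bowtie2 were used per the submitters' processing notes. The sources used here do not give versions, genome build, annotation or strand setting. The authors deposited whole-number read counts per gene, followed by 5 summary lines that held 19.3% to 58.3% of the reads and were left out. They also deposited tables with log2 fold changes, p-values and false discovery rates, per the file headers. The likelihood ratio in these tables, a score per gene from the authors, was not used.

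Symbols came from GENCODE M21 (GRCm38) and matched 28842 of 29879 identifiers. One edgeR 4.0.16 model (R 4.3.3) held all 12 libraries, with a mean per group, TMM scaling, the default expression filter (13404 genes kept) and the robust quasi-likelihood test with Benjamini-Hochberg adjustment over all genes. The genes, the 8 gene lists and the cell type marker lists (neuron, astrocyte, oligodendrocyte, oligodendrocyte precursor, microglia, endothelial, mural, fibroblast and meninges, blood, choroid plexus and ependyma) were chosen with earlier results of these data known. Named from each list are the 3 called genes with the smallest adjusted p per contrast and direction, or fewer, and the relatives Hspa8, Hspa9, Hsp90aa1, Hsp90ab1, Sec61a2 and Sec61g always.

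Replicates differed by more than counting error (chi-square per gene 11.9 to 349). Gene counts of 4368881 to 14335089 per library, and 1819853 to 2111322 outside the mitochondrial genome in SNF, limit the precision for genes of few reads such as Sec61b. Same-numbered libraries of SynapTRAP and SNF had correlated deviations from their group means (0.22, 0.29 and 0.38). The labels do not say what the replicate numbers mean, so the main fit was not paired. A block of replicate numbers over all 4 groups was fitted only as an alternative. Alternatives were other scalings and filters, DESeq2, fits of fewer groups, a replicate block and leaving out each library.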

Additional observations from a re-analysis of the deposited data

How the results depend on the processing

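Scaling by total gene counts, which include the mitochondrial RNA, shifted the median of all genes by 0.57 in TRAP against WCH, -2.35 in SNF against WCH, 1.95 in SynapTRAP against SNF, -0.98 in SynapTRAP against TRAP and 1.39 in the difference between the pull-down effects. The genes called higher and lower of the 10 were then 4 and 0, 0 and 1, 10 and 0, 2 and 1, and 1 and 0 in that order. Log2 fold changes changed sign in SNF against WCH for Calr (-0.02), Canx (-0.37), Hsp90b1 (-0.03), Pdia4 (-0.38), Pdia6 (-0.49), P4hb (-0.18) and Sec61a1 (-0.56). They did so in SynapTRAP against SNF for Canx (1.62), Hsp90b1 (1.62), Hspa5 (1.73), Pdia3 (1.85), Pdia4 (1.88), P4hb (1.56) and Sec61b (1.73), in TRAP against WCH for Canx (0.42), and in the difference for all 10 genes (0.54 to 1.32, with Pdia6 at 1.32 the one called). These shifts follow from the scaling. The factors of DESeq2 in edgeR moved the median of all genes by 0.13 in SNF against WCH, and the 10 genes stood 2.30 above it as with TMM.

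With the factors of DESeq2, DESeq2 itself, mitochondrial genes left out, no filter, a minimum count of 50 and the replicate block, the counts of called genes among the 10 were the same in all 5 contrasts. With only the groups of a contrast in the fit, 0 in place of 1 were lower in SynapTRAP against TRAP (the cause was not tested). That fit could not be made for the difference between the pull-down effects, which needs all 4 groups. Leaving out each library gave 0 to 1 higher in TRAP against WCH, 9 higher in SNF against WCH, and 9 higher with 0 to 1 lower in SynapTRAP against TRAP. Over all genes, leaving out 1 library gave 19 to 499 higher and 20 to 453 lower in SynapTRAP against SNF, against 307 and 240, and 0 to 241 and 0 to 298 in the difference, against 68 and 48. It gave 970 to 2633 lower in SNF against WCH, against 2209, with the lowest count without WCH replicate 1.

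With the replicate number as a block, the counts among the 10 genes were 1, 9, 0, 9 and 0 higher and 0, 0, 0, 1 and 0 lower in the order above. Same-number correlations over all pairs of groups were -0.01 to 0.38, with 7 of 18 over 0.1. Sec61b, with 14 to 19 reads in SNF, is the member whose depth limits its tests most.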
